A study of Homo sapiens with 4 samples.

Results

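The 8 genes described here encode enzymes that build and trim globosides and gangliosides, the sugar-bearing lipids of the outer cell surface. They are UGCG, B4GALT5, B4GALT6, A4GALT, B3GALNT1, GLA, ST3GAL5 and B4GALNT1, chosen by symbol from the 24424 gene symbols counted in every library, and all 8 were found. The set was taken up because A4GALT was about 2-fold higher in all 3 libraries that received LPS, so the values of A4GALT against Control are a description of that choice and were not used as support for anything.

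RNA was sequenced from BEAS-2B, a long-used cell line from human bronchial epithelium with wild type genotype, in 4 libraries with 1 library for each condition. Control cells had no treatment, and LPS cells received lipopolysaccharide, the outer membrane glycolipid of gram-negative bacteria, for 2 hr. In the library called WT PDZ, cells were given for 24 hr a cell-penetrating peptide made after the first PDZ domain of the tight junction protein ZO-1 and then LPS for 2 hr. In that called mut PDZ, they were given in its place the same peptide with a pair of glycines replaced by alanines, and then LPS for 2 hr, so that both peptide libraries are LPS libraries. No library here had a peptide without LPS, so peptide effects can be read only against LPS.

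Both lipid families start from ceramide. UGCG adds glucose to it, and B4GALT5 and B4GALT6 add galactose to give lactosylceramide, the branch point. A4GALT adds a further galactose and makes globotriaosylceramide (Gb3, also called CD77), the first globoside and the lipid that Shiga toxin binds, and B3GALNT1 extends Gb3 to globoside (Gb4). GLA, a lysosomal enzyme whose loss causes Fabry disease, takes the terminal galactose off Gb3 again. ST3GAL5 sends lactosylceramide the other way by adding sialic acid to give GM3, the first ganglioside, and B4GALNT1 extends that branch to GM2 and related lipids. A further branch, not among the 8, is opened by B3GNT5, which adds N-acetylglucosamine and starts the lacto-series.

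The sequences around the transcription start are printed for the 3 members that were highest against Control after LPS (UGCG, A4GALT and B4GALT5) and for ST3GAL5, which competes with A4GALT for the same lipid, so that their base composition can be compared. RefSeq on GRCh38.p14 gave windows of 300 bases, 250 before and 50 after the start, for 6 of the 8 members, with 13 starts in all. Each window runs 5′ to 3′ on the strand of the gene, and capitals mark matches to GGGCGG (the GC box) or TGACGTCA (the cAMP response element) on either strand, with overlapping matches counted. The ST3GAL5 window is the start of that gene with the most matches.
A4GALT, chr22:42720821-42721120, minus strand: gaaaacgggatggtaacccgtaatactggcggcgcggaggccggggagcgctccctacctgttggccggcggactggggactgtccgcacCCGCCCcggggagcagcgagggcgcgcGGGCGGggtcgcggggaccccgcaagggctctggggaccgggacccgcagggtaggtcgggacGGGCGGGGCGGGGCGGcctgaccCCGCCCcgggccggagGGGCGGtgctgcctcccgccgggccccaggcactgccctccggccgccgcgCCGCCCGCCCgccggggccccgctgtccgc
UGCG, chr9:111896564-111896863, plus strand: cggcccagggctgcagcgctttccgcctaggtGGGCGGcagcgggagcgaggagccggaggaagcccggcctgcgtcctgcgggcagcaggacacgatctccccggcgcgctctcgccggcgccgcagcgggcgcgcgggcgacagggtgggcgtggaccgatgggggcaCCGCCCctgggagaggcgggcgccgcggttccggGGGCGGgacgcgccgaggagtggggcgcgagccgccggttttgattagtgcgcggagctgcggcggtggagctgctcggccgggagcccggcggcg
B4GALT5, chr20:49713829-49714128, minus strand: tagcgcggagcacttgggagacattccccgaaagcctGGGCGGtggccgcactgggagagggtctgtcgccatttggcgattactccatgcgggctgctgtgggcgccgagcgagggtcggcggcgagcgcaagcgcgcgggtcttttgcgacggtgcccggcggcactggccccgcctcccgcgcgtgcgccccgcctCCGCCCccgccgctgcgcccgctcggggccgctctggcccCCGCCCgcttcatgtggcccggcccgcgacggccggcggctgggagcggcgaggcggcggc
ST3GAL5, chr2:85888941-85889240, minus strand: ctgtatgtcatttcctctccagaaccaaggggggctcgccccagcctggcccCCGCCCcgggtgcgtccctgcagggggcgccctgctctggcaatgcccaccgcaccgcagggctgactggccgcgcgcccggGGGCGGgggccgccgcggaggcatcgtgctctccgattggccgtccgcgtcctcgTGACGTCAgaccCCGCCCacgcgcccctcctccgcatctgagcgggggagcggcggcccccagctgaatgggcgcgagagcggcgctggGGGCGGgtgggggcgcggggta

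All 4 windows were rich in G and C. GC content was 81% for A4GALT, 79% for UGCG, 77.3% for B4GALT5 and 76.3% for ST3GAL5, against a median of 58.67% over 35116 start windows. The A4GALT window held 43 CpG dinucleotides, that of UGCG 48, that of B4GALT5 47 and that of ST3GAL5 36, against a median of 14. GC boxes numbered 9 in A4GALT, 4 in ST3GAL5 and 3 each in UGCG and B4GALT5, and 45% of all windows held at least 1. The second annotated start of A4GALT had a GC content of 43.3% and 1 GC box. The other annotated starts of ST3GAL5 had GC contents of 80.3%, 68%, 47.3% and 47%. Those at 47.3% and 47% held 3 CpG dinucleotides and 0 GC boxes each. No window of a member held the NF-kB consensus (11.3% of all windows), the AP-1 site TGACTCA (4.95%), the TATA box TATAAA (11.5%) or the E-box CACGTG (7.26%). These letters are a description of the windows and say nothing of which start the cells used.

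The values are read counts per gene divided by a geometric size factor, called normalized read counts below. Fold changes are on the log2 scale after adding 1 to the normalized count. With 1 library a condition no difference has a replicate check, no test was possible and no p-value is given. The 95% intervals (exact binomial, Clopper-Pearson) cover counting error between 2 libraries only. A gene was called when it differed 2-fold or more and had no fewer than 16 normalized reads in either library or both. In bulk RNA, fewer cells that express a gene and less RNA per cell cannot be told apart. Total counts were 19682929 to 25155647 a library. The mut PDZ library had the lowest total and stood apart by transcript length, with a Spearman's rho across 11751 genes of -0.603 between length and the log2 fold change against LPS, where WT PDZ had 0.0736. For the fold changes of that library against Control or LPS that are named below, a value with length and GC content corrected for is given too, a step chosen after the trend was known, which brought the rho to 0.0917. Epithelial markers were present, with all 7 of the airway epithelial list (among them KRT8, KRT18, KRT5 and CDH1) at a mean of at least 16 normalized reads and their summed level between 29413 in WT PDZ and 42728 normalized reads in mut PDZ, whose part in the results was not tested. Of the 5 leukocyte markers, PTPRC had 0 counts in all 4 libraries and CD14 and CD68 passed a mean of 16, with the summed level of the list between 727 and 888. The 3 endothelial markers stayed below a mean of 16, and the 4 fibroblast markers summed to between 408 and 552 with COL1A1 and PDGFRB above it.

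Against Control, UGCG and A4GALT were at least 2-fold higher in each of the 3 LPS libraries, B4GALT5 was 1.79-fold higher in LPS, and none of the other 5 members reached 2-fold in either direction. In LPS/Control 2 of the 8 members were called higher and 0 lower, where 3.46% of the 13277 genes with enough reads were called higher and 1.41% lower. In WT PDZ/Control the members again counted 2 higher and 0 lower, beside 3.28% and 1.42% of all genes. In mut PDZ/Control they also counted 2 higher and 0 lower, beside 5.13% and 2.96%. All 8 members passed the level filter in every comparison. Since the set was chosen on A4GALT in these comparisons, nothing was read from the counts. The called values nearest to the threshold were A4GALT at 1.02 in WT PDZ/Control and UGCG at 1.03 in mut PDZ/Control, and the uncalled values nearest to it were B4GALT6 at -0.92 in mut PDZ/Control and B4GALT5 at 0.84 in LPS/Control. The call of A4GALT in WT PDZ/Control ended under total-count scaling (0.89) and upper-quartile scaling (0.96), and that of UGCG in mut PDZ/Control under total-count scaling (0.93).

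**Figure D1:**
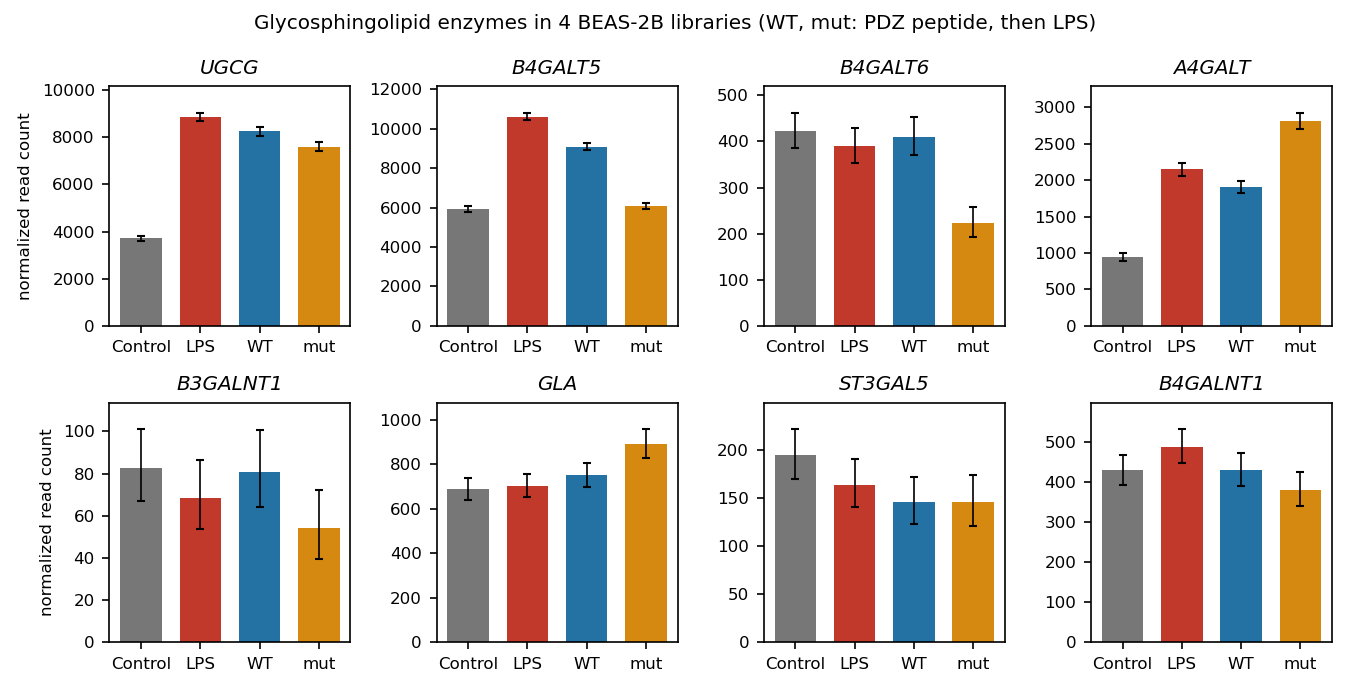
Normalized read counts (y axis, from 0, a scale for each gene) of the 8 enzymes in the Control, LPS, WT PDZ (WT) and mut PDZ (mut) libraries, 1 library per bar, with error bars for the 95% counting interval. UGCG and A4GALT were above Control in all 3 LPS libraries, while B4GALT5 in mut PDZ was level with Control.

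UGCG, which commits ceramide to every lipid described here, was among the most abundant members. It had 3717 normalized reads in Control, 8855 in LPS, 8243 in WT PDZ and 7590 in mut PDZ. All 3 LPS libraries were thus far above Control and close to each other. The log2 fold change against Control was 1.25 in LPS (2.38-fold, 95% counting interval 2.30 to 2.47), 1.15 in WT PDZ and 1.03 in mut PDZ. After the length and GC correction, the same values were 1.24, 1.13 and 1.19. Between the LPS libraries UGCG differed little, by -0.10 for WT PDZ/LPS and -0.22 for mut PDZ/LPS, the latter -0.053 after the correction. As counted, the order of the 4 libraries (Control, mut PDZ, WT PDZ, LPS) was apart at every step by more than counting error. The step between the peptide libraries changed sign with the correction, from -0.12 to 0.070 in mut PDZ/WT PDZ.

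The galactosyltransferases of the next step, B4GALT5 and B4GALT6, differed in pattern. B4GALT5 had 5918 normalized reads in Control, 10622 in LPS, 9093 in WT PDZ and 6090 in mut PDZ. LPS and WT PDZ were high, whereas mut PDZ lay at the Control level, with a log2 fold change of 0.041 (95% counting interval -0.011 to 0.094). Against Control the log2 fold change was 0.84 in LPS and 0.62 in WT PDZ. In mut PDZ/LPS it was -0.80, and the correction left -0.56. Its mut PDZ/Control value after the correction was 0.25, so the distance from LPS became smaller and did not close.

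B4GALT6, the less abundant of the pair, had 423 normalized reads in Control, 389 in LPS, 410 in WT PDZ and 223 in mut PDZ. The first 3 libraries were not distinguishable by counting error, and mut PDZ was low. Against Control it was at -0.12 in LPS, -0.045 in WT PDZ and -0.92 in mut PDZ, the last at -0.81 after the correction. Reads of B4GALT5 outnumbered those of B4GALT6 14.0-fold in Control, 27.3-fold in LPS, 22.2-fold in WT PDZ and 27.3-fold in mut PDZ. This ratio was 1.95 times that of Control in LPS (95% counting interval 1.70 to 2.24) and also 1.95 times in mut PDZ (2.09 after the correction), where both genes were lower than in LPS. In mut PDZ/LPS both were at -0.80 as counted, and after the correction B4GALT5 was at -0.56 and B4GALT6 at -0.69.

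**Figure D2:**
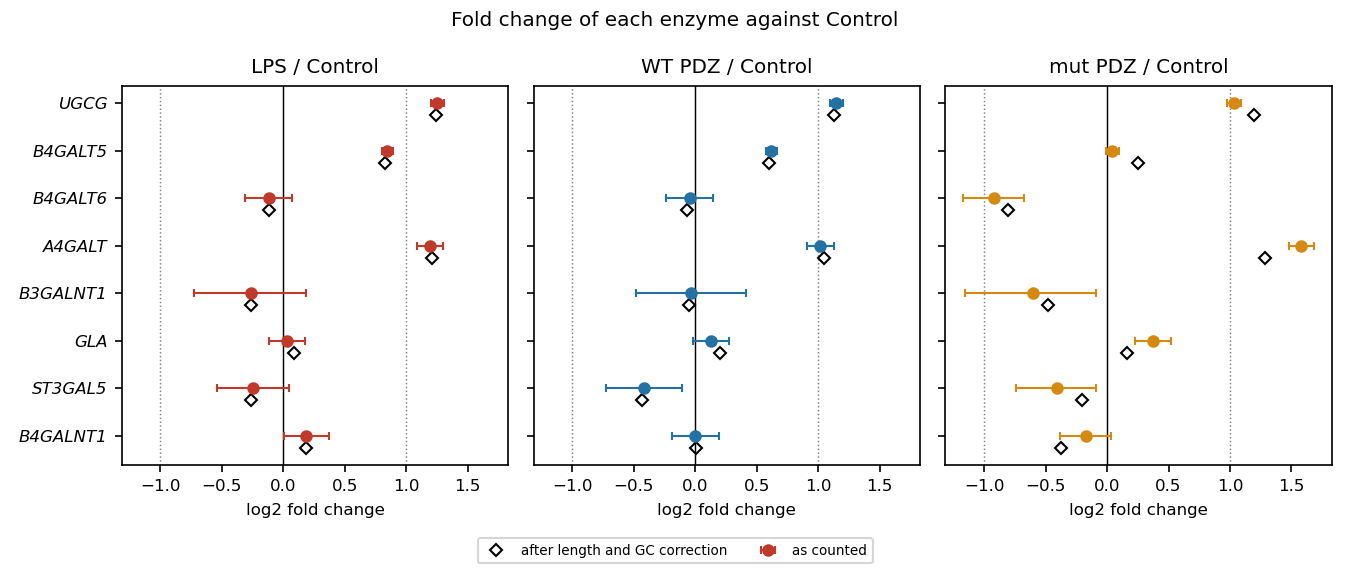
Log2 fold change against Control (x axis) of each enzyme in LPS, WT PDZ and mut PDZ. Filled points are the values as counted with 95% counting intervals, open diamonds the values after the length and GC correction, and dotted lines mark 2-fold. A4GALT in mut PDZ lay at 1.58 as counted and 1.29 after the correction.

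A4GALT, the Gb3 synthase, had 939 normalized reads in Control, 2147 in LPS, 1902 in WT PDZ and 2811 in mut PDZ, from 1079, 2282, 1884 and 2392 counts. Control was lowest and mut PDZ highest, and each step between neighbours was larger than counting error. Against Control the log2 fold change was 1.19 for LPS (95% counting interval 1.09 to 1.30), 1.02 for WT PDZ (0.91 to 1.13) and 1.58 for mut PDZ (1.48 to 1.69). The correction gave 1.21, 1.04 and 1.29. Relative to LPS, A4GALT was at -0.17 in WT PDZ (95% counting interval -0.26 to -0.086) and at 0.39 in mut PDZ (0.31 to 0.47). After the correction, the former stayed at -0.17 and the latter was 0.061.

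No member was called in the comparisons among the LPS libraries, with 0 of 8 in either direction in each. Of all genes with enough reads, 0.635% were called higher and 0.733% lower for WT PDZ/LPS. For mut PDZ/LPS these shares were 2.05% and 1.9%, and for mut PDZ/WT PDZ 2.12% and 2.14%. In WT PDZ/LPS, UGCG (-0.10), A4GALT (-0.17) and B4GALT5 (-0.22) were all lower by a small amount that exceeded counting error. In mut PDZ/WT PDZ, A4GALT was at 0.56 (0.23 after the correction), UGCG at -0.12 (0.070) and B4GALT5 at -0.58 (-0.33).

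The enzymes that act on Gb3 were within counting error of Control in LPS and WT PDZ and apart from it in mut PDZ. B3GALNT1, the Gb4 synthase, was the scarcest member, with counts of 95 in Control, 73 in LPS, 80 in WT PDZ and 46 in mut PDZ. These are 82.7, 68.7, 80.8 and 54.0 normalized reads. From lowest to highest (mut PDZ, LPS, WT PDZ, Control) no step between neighbours exceeded counting error, and of the 6 comparisons mut PDZ/Control, at -0.60 with an interval of -1.15 to -0.091, and mut PDZ/WT PDZ, at -0.57, had intervals that did not reach 0. After the correction these values were -0.48 and -0.44. GLA, the enzyme that degrades Gb3, had 688 normalized reads in Control, 704 in LPS, 752 in WT PDZ and 893 in mut PDZ. Control, LPS and WT PDZ were not separable step by step, and mut PDZ was highest, at 0.37 against Control as counted and 0.16 after the correction.

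ST3GAL5, the GM3 synthase, had 194 normalized reads in Control, 164 in LPS, 145 in WT PDZ and 146 in mut PDZ. Control was the highest of the 4 libraries, but no step between neighbours exceeded counting error. Against Control it was at -0.24 in LPS (95% counting interval -0.54 to 0.047), -0.41 in WT PDZ (-0.73 to -0.11) and -0.41 in mut PDZ (-0.74 to -0.091), the last -0.21 after the correction. B4GALNT1, the GM2 synthase, had 428 normalized reads in Control, 487 in LPS, 428 in WT PDZ and 380 in mut PDZ. LPS was highest, at 0.19 against Control with an interval of 0.0057 to 0.37, and the other 3 libraries were not separable step by step. In mut PDZ/Control B4GALNT1 was at -0.17 as counted and -0.37 after the correction. The exons of B4GALNT1 overlap those of SLC26A10 on the opposite strand over 2136 nt, and 5.38% of its 100-nt windows also occur there. SLC26A10 had 17 to 29 counts a library, and whether the counting used the strand is not given in the sources used here.

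Set per kilobase of transcript (for each gene the longest with a coding sequence in GENCODE 29), levels can be compared between genes. In Control, B4GALT5 led with 1253 normalized reads per kb, followed by UGCG (928), GLA (483), A4GALT (405), B4GALNT1 (141), B4GALT6 (109), ST3GAL5 (43.8) and B3GALNT1 (22.8). In LPS, A4GALT reached 925 normalized reads per kb and stood above GLA at 494, and the same order of these 2 genes was found in WT PDZ (820 and 528) and mut PDZ (1211 and 627). UGCG stood above B4GALT5 in WT PDZ (2057 and 1926 normalized reads per kb) and in mut PDZ (1894 and 1290). With the length of all exons joined in place of the longest transcript, B4GALT5 led in WT PDZ, UGCG still led in mut PDZ (1645 and 1290), and B4GALT6 passed B4GALNT1 and B3GALNT1 passed ST3GAL5 in Control. In each order, the ganglioside enzymes and B3GALNT1 were below A4GALT.

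At the branch point, reads of A4GALT outnumbered those of ST3GAL5 4.84-fold in Control (95% counting interval 4.19 to 5.61), 13.1-fold in LPS (11.2 to 15.4), 13.1-fold in WT PDZ (11.0 to 15.6) and 19.3-fold in mut PDZ (16.1 to 23.3). A ratio within a library does not depend on the size factor. Relative to Control the ratio was 2.71 times as high in LPS (95% counting interval 2.18 to 3.37), 2.70 times in WT PDZ (2.15 to 3.40) and 3.99 times in mut PDZ (3.15 to 5.06). After the length and GC correction these were 2.77, 2.78 and 2.82, and the ratio in mut PDZ was 0.999 times that in WT PDZ. Part of this contrast was fixed when the set was chosen on A4GALT.

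The ratios that follow were added after the data were seen. Those with A4GALT were also fixed in part when the set was chosen on that gene, and were not used as support. All are ratios of RNA reads and do not measure lipids or enzyme activity. The ratio of A4GALT to GLA reads was 1.36 in Control, 3.05 in LPS, 2.53 in WT PDZ and 3.15 in mut PDZ. In mut PDZ it was 2.31 times that of Control as counted and 2.19 times after the correction. For A4GALT to B3GALNT1, the next enzyme of the branch, the ratio was 11.4 in Control, 31.3 in LPS, 23.6 in WT PDZ and 52 in mut PDZ, where it was 4.58 times that of Control as counted and 3.42 times after the correction. Against B3GNT5, which opens the lacto-series, the ratio was nearer to that of Control, at 0.441 in Control, 0.512 in LPS, 0.439 in WT PDZ and 0.767 in mut PDZ. In LPS this was 1.16 times the Control ratio (95% counting interval 1.06 to 1.27), in WT PDZ 0.995 times (0.909 to 1.09), and in mut PDZ 1.74 times as counted and 1.31 times after the correction. From ceramide, UGCG makes glucosylceramide and SGMS2 makes sphingomyelin. The ratio of UGCG to SGMS2 reads was 3.12 in Control, 4.59 in LPS, 4.41 in WT PDZ and 7.11 in mut PDZ. In mut PDZ it was 2.28 times that of Control as counted and 2.12 times after the correction.

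**Figure D3:**
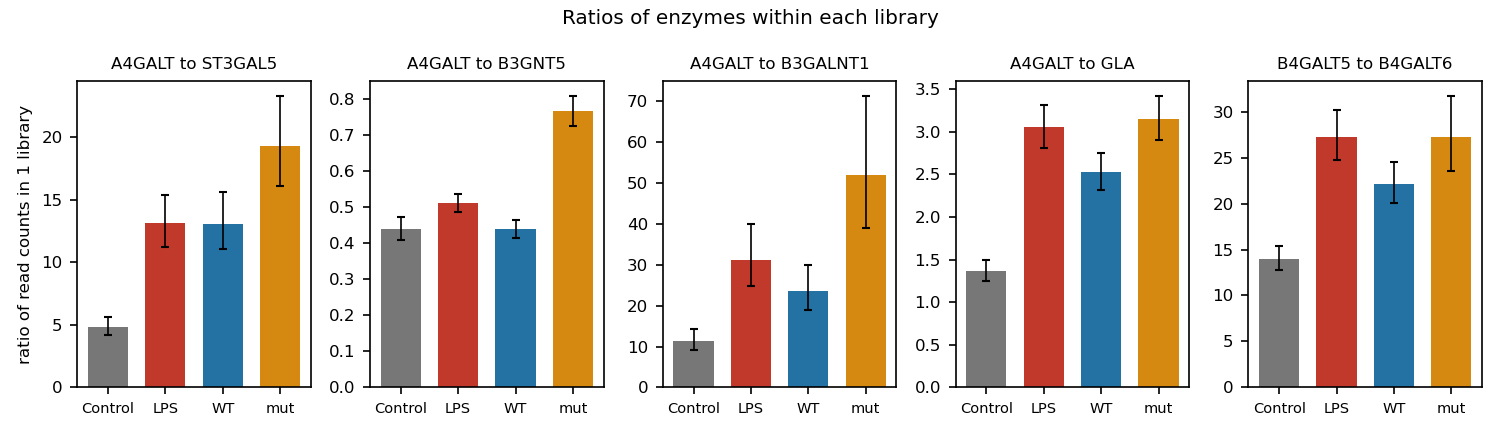
Ratio of the read counts of 2 enzymes within each library (y axis, from 0, a scale for each panel), with 95% counting intervals, in the Control, LPS, WT PDZ (WT) and mut PDZ (mut) libraries. A4GALT to ST3GAL5 was 4.84 in Control and 13.1 or more in the 3 LPS libraries, whereas A4GALT to B3GNT5 was 0.441 in Control and 0.439 in WT PDZ.

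The rest of the pathway was read from 5 lists. Ceramide supply, from serine palmitoyltransferase to the ceramide synthases and the transfer protein, had 12 of 15 genes at a mean of at least 16 normalized reads and a median log2 fold change of 0.024 in LPS/Control, beside -0.0010 over all genes. In LPS/Control 0 were called higher and 1 lower, CERS1 with 8 counts against 27, a gene that shares a transcript with GDF1 and is uncertain for that reason. CERS1 had 16 counts in WT PDZ and 26 in mut PDZ. The remaining genes of this list ranged from -0.38 for COL4A3BP, which carries ceramide to the Golgi for sphingomyelin, to 0.28 for KDSR, a reductase of sphingoid base synthesis. COL4A3BP was at -1.18 in mut PDZ/Control and -0.78 after the correction. DEGS1, which makes ceramide from dihydroceramide, stood at 0.23 in LPS/Control.

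Enzymes that use ceramide for other lipids had a median of 0.24 in LPS/Control over the 5 of 6 genes with enough reads, and 0 were called. The sphingomyelin synthases SGMS2 (0.70) and SGMS1 (0.57) were the highest of the list, and CERK, which phosphorylates ceramide, was the lowest at -0.17. SGMS2 was at 0.65 in WT PDZ/Control and at -0.16 in mut PDZ/Control, the last 0.11 after the correction.

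The other glycosphingolipid synthesis genes had 14 of 23 at a mean of 16 or more, and a median of 0.28 in LPS/Control. In LPS/Control 1 was called higher and 1 lower, in WT PDZ/Control 1 and 1, and in mut PDZ/Control 0 and 1. The gene called higher in LPS/Control was B4GALT1, a galactosyltransferase that acts mainly on glycoproteins, at 1.08, with 0.97 in WT PDZ/Control and 0.43 in mut PDZ/Control, the last 0.58 after the correction. That in WT PDZ/Control was B3GNT5 at 1.03, which stood at 0.98 in LPS/Control and 0.78 in mut PDZ/Control (0.90 after the correction), so that its called and uncalled values lay side by side. The gene called lower in all 3 was FUT2, a fucosyltransferase of the H antigen that averaged under 16 normalized reads, with 28 counts in Control against 8 in LPS, 11 in WT PDZ and 6 in mut PDZ, so few that the counting error is wide. Among genes above that mean, FUT1, which makes the same antigen in other cells, was lowest in LPS/Control at -0.50.

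Relatives of the members gave a mixed picture. Of the B4GALT family outside the set, B4GALT2 (-0.18), B4GALT3 (0.099) and B4GALT4 (0.23) stayed near Control in LPS. Among the α2,3-sialyltransferases, ST3GAL4 was at 0.79 in LPS/Control, 0.78 in WT PDZ/Control and 0.90 in mut PDZ/Control (0.67 after the correction), and ST3GAL6 at 0.57, ST3GAL1 at 0.42, ST3GAL2 at 0.33 and ST3GAL3 at 0.12 in LPS/Control. ST3GAL6 was at 0.0085 in WT PDZ/Control and at 0.51 in mut PDZ/Control (0.64 after the correction). The interval of ST3GAL3 in LPS/Control (-0.17 to 0.41) reached 0, as did that of ST3GAL5 itself (-0.54 to 0.047). A4GNT, an α1,4-N-acetylglucosaminyltransferase of the same family as A4GALT, had 1 to 6 counts a library, and GBGT1, which can extend Gb4 to the Forssman lipid, was below the level filter in LPS/Control.

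Transcripts of the breakdown genes had a median close to Control in LPS and below it in mut PDZ. Of 17 genes, 14 had enough reads, with a median of -0.012 in LPS/Control and a range from -0.20 for NEU3 to 0.12 for PSAP, the precursor of the saposins, and 0 were called in LPS/Control or WT PDZ/Control. In mut PDZ/Control the median was -0.27 as counted and -0.25 after the correction, beside -0.018 over all genes. The 95% interval of the list median over its genes, -0.58 to 0.19, reached 0. As counted, 11 of the 14 genes were below 0, beside 6751 of 13072 over all genes. The 3 above 0 were HEXA (0.21), ARSA (0.21) and NEU1 (0.19). After the correction HEXA was at 0.44, NEU1 at 0.0058 and ARSA at -0.26, so that ARSA changed sign. In mut PDZ/Control 1 was called lower, NEU3, a plasma membrane sialidase that acts on gangliosides, at -1.50 and at -1.17 after the correction. Its counts were 284 in Control, 229 in LPS, 264 in WT PDZ and 74 in mut PDZ, with the last alone standing low. HEXA, a subunit of β-hexosaminidase, was at 0.092 in LPS/Control.

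Transporters, Golgi factors and sugar donor enzymes had all 13 genes with enough reads and a median of -0.0013 in LPS/Control. The gene called higher, in LPS/Control and in both peptide libraries against Control, was UGP2, which makes the UDP-glucose that UGCG uses. Its counts were 3453 in Control, 7868 in LPS, 6721 in WT PDZ and 5497 in mut PDZ, and log2 fold changes of 1.30, 1.18 and 1.10 against Control, the last 1.07 after the correction. TMEM165, a Golgi manganese and calcium transporter on which galactosylation depends, was at 0.42 in LPS/Control, 0.41 in WT PDZ/Control and 0.72 in mut PDZ/Control (0.63 after the correction). CPTP, a ceramide-1-phosphate transfer protein, was the lowest of this list in LPS/Control at -0.30. LAPTM4A (0.11) and TM9SF2 (0.082), Golgi and endosomal proteins needed for Gb3 synthesis, stayed near Control in LPS. In mut PDZ/Control TM9SF2 was at -0.35 (-0.19 after the correction) and LAPTM4A at 0.10 (-0.022).

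**Figure D4:**
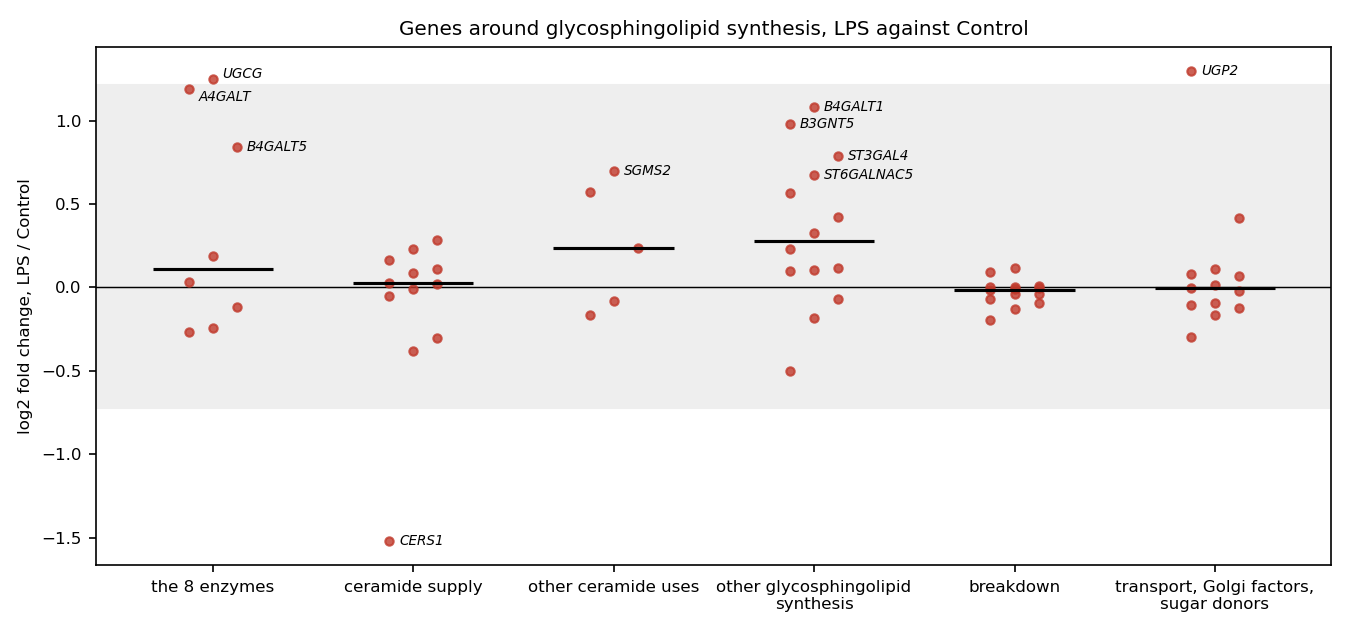
Log2 fold change in LPS/Control (y axis) of the 8 enzymes and of the genes of 5 pathway lists that averaged 16 normalized reads or more, 1 point a gene. Black bars are list medians and the grey band holds the central 95% of 13072 genes, from -0.73 to 1.22. UGCG and UGP2 lay above the band, CERS1 below it, and the breakdown genes close to 0.

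The profile of A4GALT over the 4 libraries was compared with that of 10858 other genes averaging at least 100 normalized reads, as the root mean square difference of centred log2 values. The 5 genes most like it were P2RY11, an ATP receptor (difference 0.014), SIX5, a homeobox factor (0.033), SAT1, the spermidine and spermine acetyltransferase (0.046), ANGPTL4, a secreted inhibitor of lipoprotein lipase (0.050), and TGIF1, a homeobox repressor (0.061). SAT1, the most abundant of them, had 2202 normalized reads in Control, 5489 in LPS, 4741 in WT PDZ and 7009 in mut PDZ. Each of the 5 was lowest in Control and highest in mut PDZ, as the choice by likeness fixed. Among the pathway genes, UGP2 ranked 148, UGCG 173 and B3GNT5 308 in likeness, GLA 1686 and B4GALT5 4593, and B4GALT6 ranked 10501. The profiles are as counted, and the likeness was not taken again after the length and GC correction. That correction moved A4GALT in mut PDZ/LPS from 0.39 to 0.061. With 4 libraries such likeness is a description only.

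**Figure D5:**
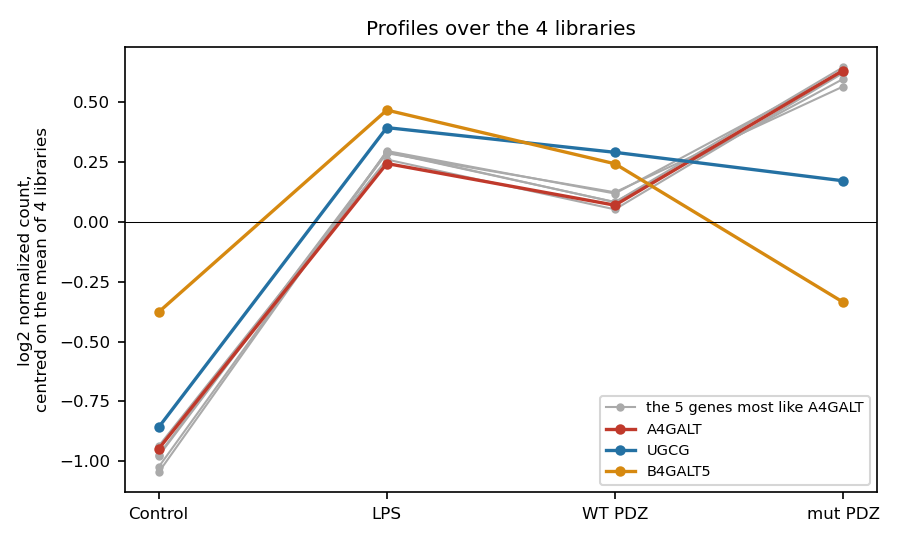
Log2 normalized read count (y axis), centred on the mean of the 4 libraries, for A4GALT, UGCG, B4GALT5 and the 5 genes most like A4GALT, over the Control, LPS, WT PDZ and mut PDZ libraries (lines only join the points of a gene). As counted, A4GALT and the 5 genes were highest in mut PDZ, while UGCG and B4GALT5 were highest in LPS. After the length and GC correction, mut PDZ/LPS was 0.061 for A4GALT, -0.053 for UGCG and -0.56 for B4GALT5.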

How the data were processed

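RNA from 4 BEAS-2B libraries, 1 a condition, was made into libraries with a directional kit after poly(A) selection. The authors trimmed adapters and bases below a quality of 20, mapped the reads with TopHat to hg19 (as the submitters' processing notes name them) and deposited values for each gene symbol. The study's methods name FPKM and geometric normalization, but every deposited value is an integer and the totals differ between libraries, so they were taken as raw counts, on which the size factors and intervals rest. The counting tool, annotation and strand setting are not given in the sources used here. The deposited counts were divided by geometric size factors (1.15 for Control, 1.06 for LPS, 0.990 for WT PDZ and 0.851 for mut PDZ, DESeq2 1.42.0 in R 4.3.3), and 1 was added before log2. The samples were grouped by their treatment labels, and all 6 pairs of libraries were compared.

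A gene was called when it differed 2-fold or more and had no fewer than 16 normalized reads in either library or both. List medians used genes with a mean of at least 16 (13072 genes). Intervals at 95% are exact binomial. They describe counting error alone, because PCR copies cannot be told from separate molecules here. Ratios of ratios have exact conditional intervals. For the correction, a lowess curve (span 0.3) of fold change over transcript length and then over GC content was subtracted, from the longest protein-coding transcript in GENCODE 29, which 11751 of the 13072 genes had. No coordinates on hg19 are given. Start windows come from RefSeq on GRCh38.p14.

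Genes named were the 8 members, in each list every gene at least 2-fold apart from Control (at most 4) with the highest and lowest in LPS/Control, the relatives of the members, and the 5 genes most like A4GALT. A few list genes besides were named after their values were seen (DEGS1, SGMS1, TMEM165, LAPTM4A, TM9SF2 and HEXA). The members and lists were chosen with earlier results of these data known. Alternatives were scaling by TMM (edgeR 4.0.16), by the total count or by the upper quartile, adding 5 in place of 1 before log2, no minimum and a minimum of 64 normalized reads, folds of 1.5 and 3, joined exons as the length and, added after the data were seen, size factors without the mut PDZ library and the corrected branch ratio. The calls, the length correction and the intervals were tried on simulated Poisson counts with a length trend in the mut PDZ library. Those counts held no GC trend and no spread beyond counting error. They therefore cannot show how well the correction or the intervals hold in these libraries. Intervals came from scipy 1.17.1 and the lowess fit from statsmodels 0.14.6, run in Python 3.11.15 with pandas 2.3.3, and figures from matplotlib 3.10.9.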

Additional observations from a re-analysis of the deposited data

Results flagged for a closer look

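A4GALT stood on opposite sides of the LPS library in the peptide libraries. Its log2 fold change was -0.17 for WT PDZ/LPS and 0.39 for mut PDZ/LPS, with 1 library each, and the difference was not tested. With length and GC content corrected for, the latter was 0.061. The correction takes both properties together, and the part of each in the difference was not tested.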

How the results depend on the processing

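No called value changed sign. Among those uncalled, sign changes included B4GALT5 in mut PDZ/Control (-0.057) under total-count scaling, and UGCG (0.070) and GLA (-0.042) in mut PDZ/WT PDZ after the length and GC correction. TMM scaling, and size factors set without the mut PDZ library, left all values within counting error and all counts of calls as they were, the latter with A4GALT at 1.19 in LPS/Control, 1.01 in WT PDZ/Control and -0.18 in WT PDZ/LPS. Total-count scaling shifted the median of all genes by about -0.13 in LPS/Control, and with it A4GALT to 1.06 in LPS/Control and 0.89 in WT PDZ/Control. The members called higher became 1 in WT PDZ/Control and 1 in mut PDZ/Control, with 1 lower there (B4GALT6). List medians became 0.11 and 0.095 for other ceramide uses in LPS/Control and WT PDZ/Control, -0.14 for breakdown and -0.13 for transport in LPS/Control, and -0.0078 for other synthesis in WT PDZ/Control, and other synthesis had 0 called higher in both. Upper-quartile scaling left 1 member and 0 genes of other synthesis called higher in WT PDZ/Control.

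The length and GC correction gave A4GALT 1.29 in mut PDZ/Control, 0.061 in mut PDZ/LPS and 0.23 in mut PDZ/WT PDZ, and the change of the A4GALT to ST3GAL5 ratio 2.82, 1 and 0.999 times in the same comparisons. It left 0 genes of other synthesis called higher in WT PDZ/Control and 0 of ceramide supply lower in mut PDZ/Control, and the median of other ceramide uses there was 0.16 in place of -0.16.

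The share of all genes called was taken for the main 2-fold call only. Counts at the other settings therefore have no share beside them, and nothing was read from them. At a fold of 1.5, the members higher were 3 in LPS/Control, 3 in WT PDZ/Control and 2 in mut PDZ/Control. Those lower were 2 in mut PDZ/Control, 2 in mut PDZ/LPS and 1 in mut PDZ/WT PDZ. Other synthesis had 4 higher in LPS/Control, 4 higher and 2 lower in WT PDZ/Control and 2 higher and 2 lower in mut PDZ/Control, and other ceramide uses had 1, 2 and 1 higher. In mut PDZ/Control, 4 of ceramide supply and 2 of breakdown were lower and 2 of transport higher. At a fold of 3, 0 members and 0 genes of ceramide supply, breakdown and transport were called in the 3 comparisons against Control, and 0 of other synthesis in LPS/Control and WT PDZ/Control.

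A minimum of 64 normalized reads left 0 of ceramide supply called lower in LPS/Control and 0 of other synthesis lower in all 3, with medians of 0.40 and 0.42 for other ceramide uses in LPS/Control and WT PDZ/Control. With no minimum those medians were 0.12 and 0.42, and more genes were called higher (other synthesis 2 in LPS/Control and 2 in mut PDZ/Control, ceramide supply 2 and other ceramide uses 1 in WT PDZ/Control, ceramide supply 1 in mut PDZ/Control). A pseudocount of 5 left 0 of other synthesis lower in WT PDZ/Control. Levels per kb of joined exons in Control were 276 for A4GALT, 805 for UGCG, 79.7 for B4GALT6, 11.9 for ST3GAL5, 53.5 for B4GALNT1 and 303 for GLA. The cause of these differences was not tested beyond what each setting changes.

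No paired analysis was possible because each condition had 1 library and the labels carry no replicate numbers. With 46 to 95 counts of B3GALNT1 and 124 to 223 of ST3GAL5, their intervals are the widest of the members.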

Other observations

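Several glycosphingolipid genes had no reads to describe in these cells. B3GALT5, A3GALT2, CERS3, NEU2 and NEU4 had 0 counts in all 4 libraries, which allows up to 3 counts in each.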
